A study of Mus musculus with 10 samples.

Results

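The genes described here were 10 genes of the hair placode, the epithelial thickening from which a hair follicle grows: Edar, Dkk4, Wnt10b, Lef1, Axin2, Lhx2, Sox9, Wif1, Fgf20 and Trps1. They were found by gene symbol among the 33243 genes listed for any library, and each library's list held all 10. Their transcripts were counted as unique molecular identifiers (UMIs) in single cells of dissociated dorsal skin of mouse embryos. Each level below is in CPM, the UMIs of a gene per 1000000 UMIs in the cells of 1 gate and 1 library. Levels are not scaled further, while tested differences in log2 CPM are edgeR estimates after TMM scaling between libraries, so the 2 need not match. The genotypes were compared with 2 libraries each at E15.5 (control and MOF cKO) and again at E16.5, and with 1 library each at E17.5 (control and QPC cKO). In MOF cKO, labelled MOFfl/fl/K14Cre, the floxed gene of the histone H4 lysine 16 acetyltransferase MOF (gene symbol Kat8) is deleted by a Cre recombinase under the Krt14 promoter. In QPC cKO, labelled QPCfl/fl/K14Cre, the same driver deletes the floxed gene of QPC (gene symbol Uqcrq), a subunit of respiratory complex III. Krt14 is a keratin of the surface epithelium, where its promoter is active. Controls were littermates labelled Control with no allele given, described in the study as wildtype or heterozygous, and all embryos were of mixed C57Bl/6J and CD-1 background. The study describes the E15.5 MOF cKO library numbered 6 as mosaic and library 5 as homogeneous. Tests of the 10 genes within E15.5 are therefore given with and without library 6, and those of the pathway lists with it alone. The labels do not say whether libraries of a group came from separate litters, and p-values measure the spread between these libraries.

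Placodes form where Wnt ligands stabilise β-catenin, which acts with TCF/LEF factors on DNA, and where ectodysplasin binds its receptor Edar and activates NF-kB. Placode cells then secrete Fgf20 and Wnt ligands toward the dermis, where a condensate of fibroblasts gathers, while secreted inhibitors such as Dkk4 limit the spread of the Wnt signal. Lhx2 and Sox9 are transcription factors of hair follicle progenitors, Axin2 is a feedback inhibitor inside the Wnt pathway, Wif1 is a secreted protein that binds Wnt ligands, and Trps1 is a zinc finger repressor found in follicle epithelium and in the mesenchyme below it.

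Cells were kept with over 1000 and under 6000 genes and under 10% of UMIs from mitochondrial genes. Epithelial-gate cells had at least 10 UMIs of Krt5 and Krt14 together, and fibroblast-gate cells at least 30 UMIs of Col1a1 and Col3a1 together with fewer than 10 of the keratins. The gates held 2635 and 2896 epithelial cells in the E15.5 controls and 1061 and 1648 in MOF cKO, 266 and 512 against 30 and 39 at E16.5, and 3069 in control against 1162 in QPC cKO at E17.5. Libraries held 13609345 to 203392303 UMIs, and those of E16.5 were the shallowest. The 7 epithelial markers, which like the dermal ones include the 2 genes of their gate, summed to 7132 to 20840 CPM in the epithelial gates and 21.9 to 578 CPM in the fibroblast gates. The 7 dermal fibroblast markers summed to 24315 to 62839 CPM in the fibroblast gates and 852 to 28454 CPM in the epithelial gates, and no marker of either list was at 0 in any gate. In the E17.5 control the epithelial gate held more of the dermal than of the epithelial markers, 28454 against 14801 CPM. Epithelial-gate cells that also passed the collagen limit, called cells positive for both gates below, made up 28.9% and 4.49% of the gate in the E16.5 controls and 0% and 7.69% in MOF cKO, and 41.9% in the E17.5 control against 8.78% in QPC cKO. Pairs of libraries shared at most 0.354% of their cell barcodes. Kat8 measured 13.0 and 14.0 CPM in epithelial-gate cells of the E15.5 controls and 13.0 and 10.0 CPM in MOF cKO, and 17.6 and 14.8 CPM against 8.66 and 3.75 CPM (5 and 3 UMIs) at E16.5. The counts are tags of transcript 3′ ends and the deleted part of the gene is not given in the sources used here, so Kat8 was no check of the deletion. In fibroblast-gate cells Kat8 was also lower in MOF cKO, at 9.18 and 9.62 against 6.83 and 5.98 CPM at E15.5 and 9.6 and 8.23 against 2.81 and 5.39 CPM at E16.5. Both MOF cKO libraries lay under both controls for 20.4% of all genes tested in that gate at E15.5 and 35.8% at E16.5. The study describes the deletion as specific to epithelial cells, with H4 lysine 16 acetylation intact in the dermis. In epithelial-gate cells Uqcrq measured 106 CPM in the E17.5 control and 43.9 CPM in QPC cKO. In fibroblast-gate cells it went the other way, at 69.4 CPM in control and 122 CPM in QPC cKO.

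Among the 10 genes, Edar is the receptor, and the mouse gene lies on the minus strand of chromosome 10, while Wnt10b encodes a Wnt ligand and lies on the minus strand of chromosome 15. Lef1, on the plus strand of chromosome 3, encodes the DNA-binding partner of β-catenin. Promoters of these 3 genes are shown because they alone, among those of 6 matched members, held letters of a motif on the strands searched. The matched members were Edar, Wnt10b, Lef1, Axin2, Lhx2 and Wif1, with 10 promoters. The search covered the 250 bases before a RefSeq transcript start (GRCm38.p6, mouse). The TCF/LEF letters searched on both strands were CTTTG followed by AA, AT, TA or TT, found in 14.8% of 32851 promoters of that length. The NF-kB motif was searched on the printed strand alone and found in 5.0%. A promoter of Lhx2 held NF-kB letters on the opposite strand, which was not searched. Capitals mark the match, which in Edar began 233 bases and in Lef1 147 bases before the start (TCF/LEF, in Lef1 on the opposite strand, at the most downstream of 4 listed starts), and in Wnt10b 204 and 40 bases before the start (NF-kB). A match of letters does not show that a factor binds there. The stretches are chr10:58675697-58675946 (minus strand) for Edar, chr3:131156044-131156293 (plus strand) for Lef1 and chr15:98778151-98778400 (minus strand) for Wnt10b, none of which overlapped an annotated exon.
Edar: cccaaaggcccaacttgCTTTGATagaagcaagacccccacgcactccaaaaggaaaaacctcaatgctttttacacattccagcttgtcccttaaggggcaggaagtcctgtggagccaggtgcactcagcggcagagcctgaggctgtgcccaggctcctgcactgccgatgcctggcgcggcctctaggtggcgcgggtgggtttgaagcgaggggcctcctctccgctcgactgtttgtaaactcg
Lef1: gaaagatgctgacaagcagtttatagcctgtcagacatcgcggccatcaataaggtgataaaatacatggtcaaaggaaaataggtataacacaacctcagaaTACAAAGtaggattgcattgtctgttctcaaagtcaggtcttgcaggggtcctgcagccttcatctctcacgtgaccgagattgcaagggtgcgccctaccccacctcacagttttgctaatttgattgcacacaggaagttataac
Wnt10b: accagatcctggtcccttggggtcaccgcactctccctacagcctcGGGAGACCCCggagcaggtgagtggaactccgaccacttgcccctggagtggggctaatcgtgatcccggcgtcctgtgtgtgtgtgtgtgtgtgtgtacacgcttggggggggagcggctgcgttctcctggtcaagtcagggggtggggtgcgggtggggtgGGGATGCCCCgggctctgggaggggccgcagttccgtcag

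In control skin, 7 of the 10 genes were higher in epithelial-gate than in fibroblast-gate cells and 3 were lower. All 10 passed the test in 5 control libraries (edgeR, library as a block, adjusted p under 0.05), where 57.4% of the 15859 genes tested did, 29.0% in the higher and 28.4% in the lower direction. Dkk4, the secreted Wnt inhibitor, had the largest difference in log2 CPM, 7.13 ± 0.53 (SE), followed by Fgf20 at 6.12 ± 0.49, Edar at 5.93 ± 0.46, Wnt10b at 4.95 ± 0.76, Lhx2 at 4.22 ± 0.19 and Sox9 at 2.25 ± 0.17. Lef1 was higher by 1.16 ± 0.16, and Wif1 and Trps1 had negative differences, -2.59 ± 0.37 and -2.02 ± 0.19, with lower levels in epithelial-gate cells. In the fibroblast gate Edar, Dkk4 and Fgf20 reached at most 0.555, 0.398 and 0.278 CPM in any library. Axin2 was closest to even, at -0.34 ± 0.11 (edgeR adjusted p = 0.0408), its values in the gates overlapped as did those of Trps1, and its call was lost without the library block (adjusted p = 0.232) and without any of 4 of the 5 libraries (adjusted p from 0.0877 to 0.116).

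**Figure D1:**
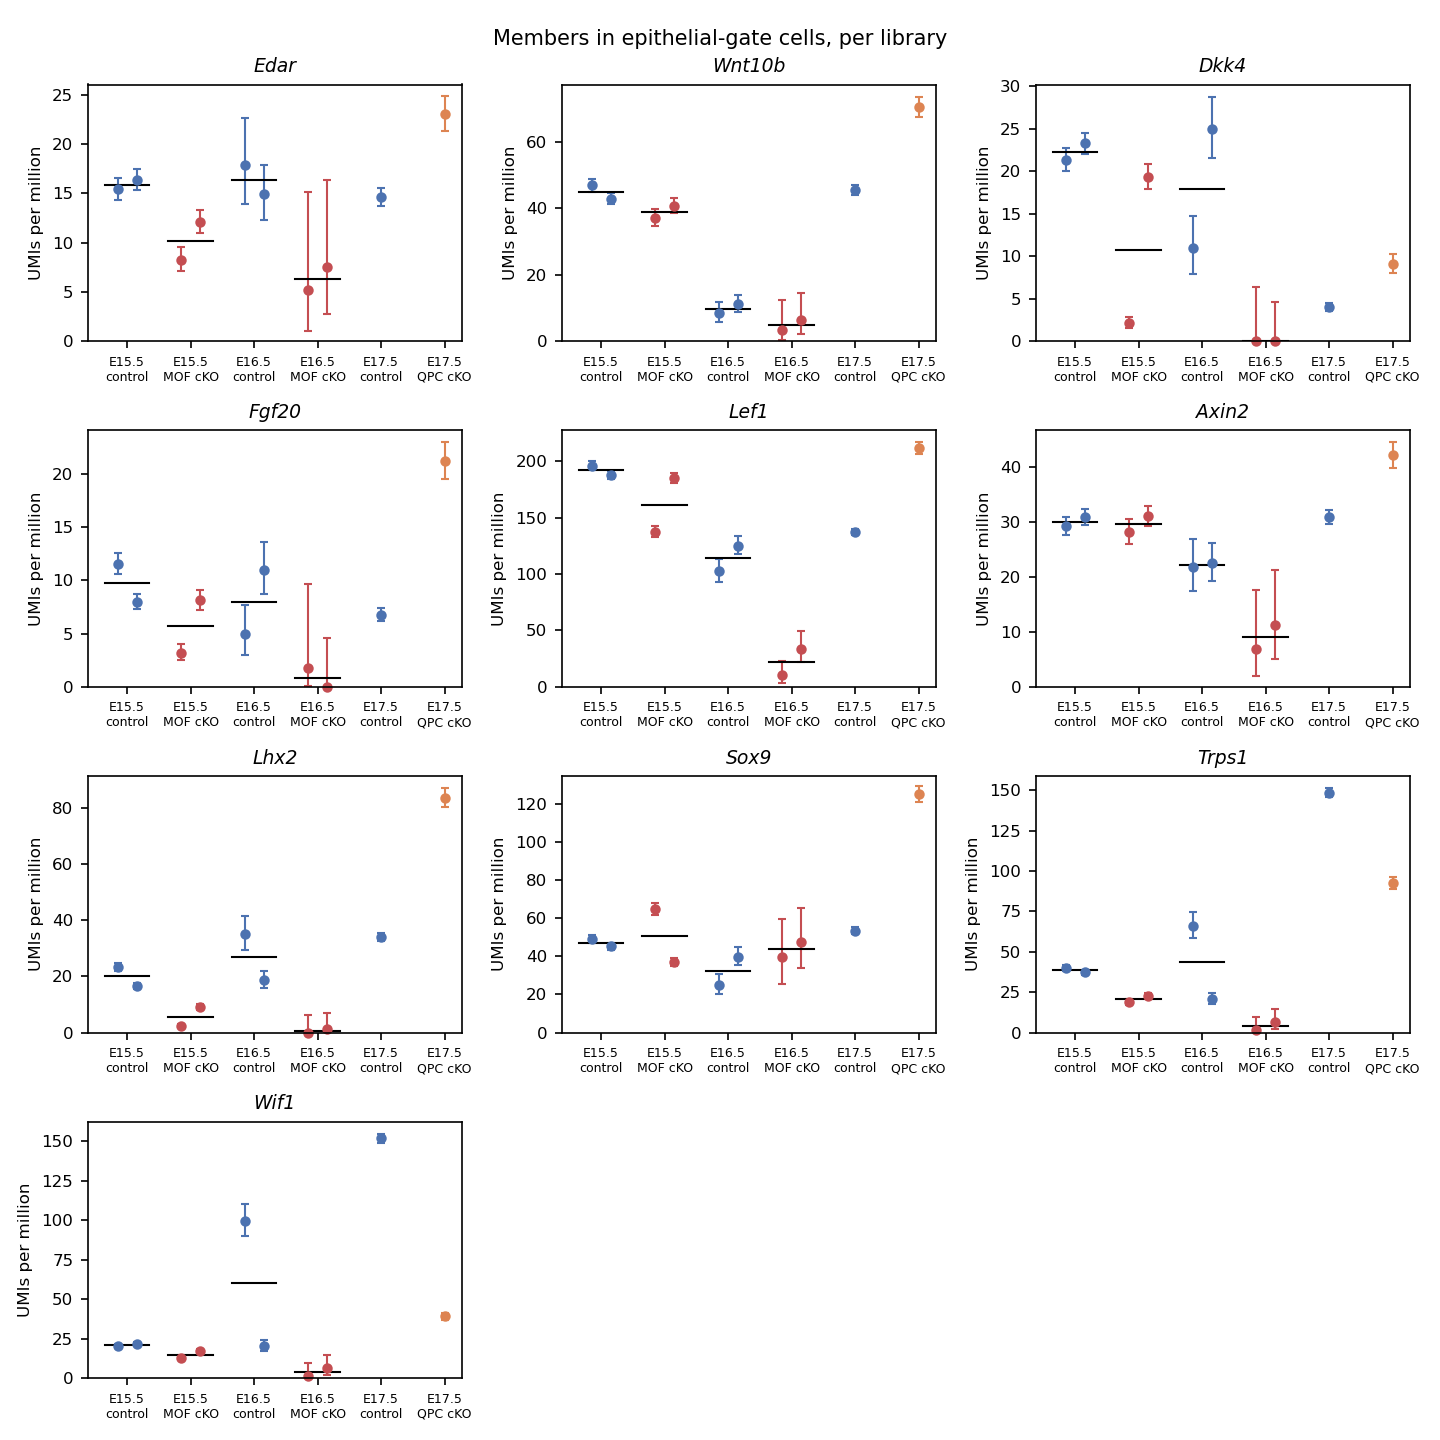
Level of each of the 10 genes in epithelial-gate cells of every library, in CPM on axes that start at 0. Points are libraries, vertical bars are 95% exact Poisson intervals (counting error only), horizontal bars are group means of the 2 libraries, and colours mark control (blue), MOF cKO (red) and QPC cKO (orange). At E16.5 both MOF cKO libraries lay under both controls for every gene except Sox9, as they did for 56.4% of all genes tested.

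Within the epithelium of both E15.5 controls, 9 of the 10 genes had lower levels in cells high in suprabasal keratins, and Axin2 did not. The share of all genes that were lower in such cells was not counted, so the number is not read as a trait of these genes. In the E15.5 controls, Dkk4 measured 22.7 and 26.5 CPM in cells with fewer than 10 UMIs of Krt1 and Krt10, the keratins of differentiating layers, and 3.78 and 0.833 CPM in cells with 10 or more. Lhx2 measured 25.2 and 18.8 against 2.62 and 1.25 CPM. Fgf20 measured 12.3 and 8.83 against 1.74 and 2.22 CPM. For these 3 genes the cells high in suprabasal keratins were the lower in both libraries. Axin2 differed from them, with 29.2 and 30.1 CPM in cells low in suprabasal keratins and 29.9 and 36.5 CPM in cells high in them. The share of epithelial-gate cells high in Krt1 and Krt10 was 6.26% and 10.8% in the E15.5 controls against 15.1% and 12.3% in MOF cKO, and 10.2% and 9.38% against 30% and 43.6% at E16.5.

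The members were found together in cells in a pair of blocks. In the E15.5 controls Dkk4 had a UMI in 165 of 2635 and 172 of 2896 epithelial-gate cells, and 61.2% and 55.8% of those cells also had a UMI of Fgf20, against 4.90% and 3.82% of cells without Dkk4. Edar was found in 58.2% and 64.5% of Dkk4-positive cells against 16.3% and 18.6% of the others, and Wnt10b in 83.6% and 83.7% against 44.5% and 44.5%. These 4 genes are the receptor and the secreted factors of the placode. Lhx2, in contrast, was found with Trps1 and Sox9, which had a UMI in 76.8% and 81.0%, and in 68.1% and 72.3%, of Lhx2-positive cells, against 13.7% and 15.4%, and 22.4% and 26.4%, of Lhx2-negative cells. Lef1 was less frequent in Lhx2-positive cells (66.3% and 70.1%) than in Lhx2-negative cells (84.9% and 82.5%), and Sox9 was about as frequent with as without Dkk4 (25.5% and 34.9% against 27.3% and 29.8%). The blocks were not separate, since Trps1 was also found in 49.7% and 57.6% of Dkk4-positive cells against 18.3% and 18.3% of the others. Since Trps1 and Wif1 were higher in fibroblast-gate cells, the pairs were also counted without cells positive for both gates, where Trps1 was found in 76.0% and 81.6% of Lhx2-positive cells against 9.98% and 11.8% of the others. Shares were not adjusted for UMIs per cell, which raise every pair, and are a description with no test.

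**Figure D2:**
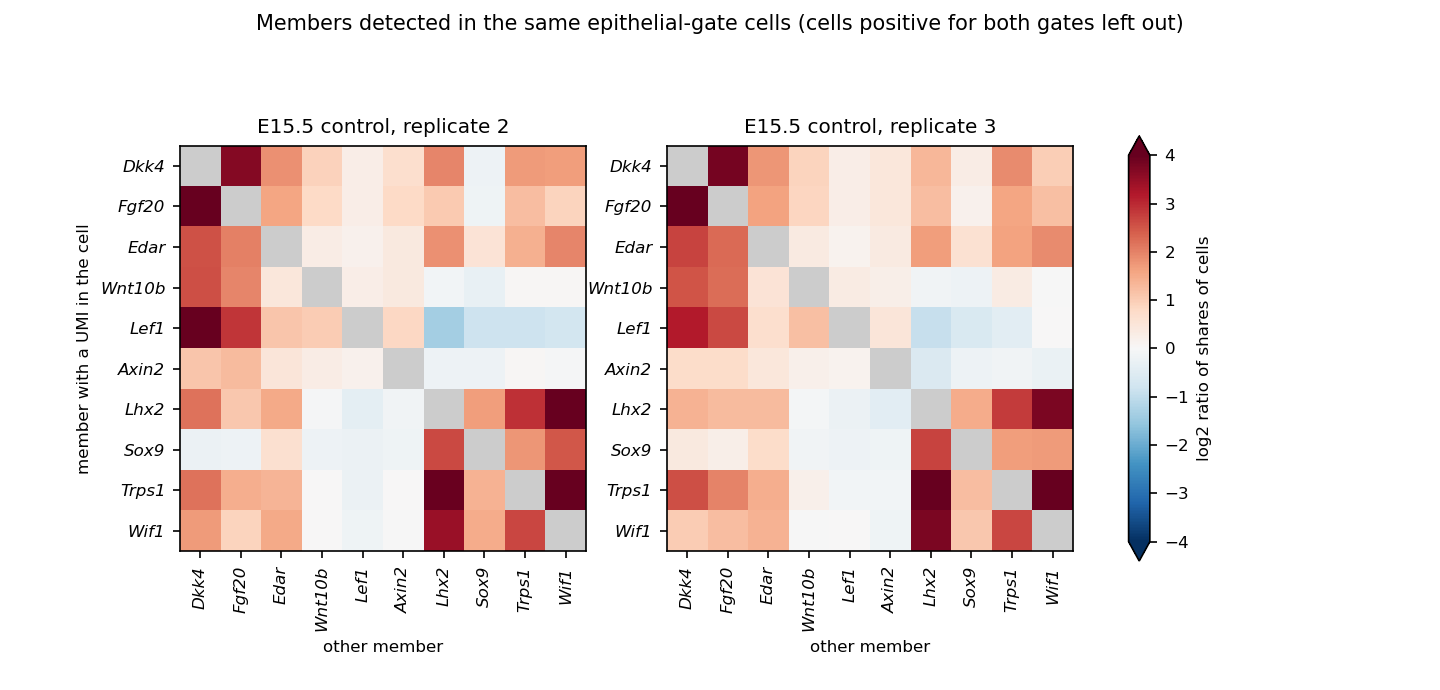
Co-detection of the 10 genes in epithelial-gate cells of the E15.5 controls, replicates 2 and 3, without cells positive for both gates. Each square is the log2 ratio of the share of cells with a UMI of the column gene among cells with the gene named at the left to that share among cells without it (colours stop at 4 in either direction). Dkk4 and Fgf20, and Lhx2, Trps1 and Wif1, form the darkest squares in both libraries.

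The genes whose pattern over epithelial-gate cells was most like a member's were looked for among all genes. The likeness measure was Pearson's r of log values over 2635 and 2896 cells of the E15.5 controls, given as the lower of the 2 libraries among 13209 genes. For Dkk4 the nearest were Fgf20 (r = 0.484), Ascl4 (0.471) and Sp5 (0.454), a Wnt target. For Wnt10b they were Bmp2 (0.327), Dkk4 (0.324) and Shh (0.302), the hedgehog ligand of the placode, and those near Edar included Lgr6 (0.340) and Ctnnb1 (0.338), the gene of β-catenin. For Lhx2 they were Nrp2 (0.662), Tgfb2 (0.587) and Trps1 (0.583), and for Sox9 they were Krt17 (0.485), Pthlh (0.454) and Penk (0.434). Lef1 lay nearest to Dcn (0.438), a proteoglycan gene on the list of dermal fibroblast markers, with or without cells positive for both gates. Axin2 had no gene at 0.2 or above. Without cells positive for both gates the first gene became Fn1 for Edar (r = 0.383), Dcn for Wnt10b (0.327) and Nrp2 for Wif1 (0.575). The cells share a library, its depth and its free RNA, so the values are a description.

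The first comparison asked how the 10 genes stood in MOF cKO epithelium at E15.5. The receptor Edar measured 15.4 and 16.4 CPM in control and 8.28 and 12.1 CPM in MOF cKO libraries 5 and 6. Lhx2, the progenitor factor, measured 23.4 and 16.6 CPM against 2.25 and 9.08 CPM. Trps1, the zinc finger repressor, measured 40.0 and 37.3 against 19.1 and 22.7 CPM. In all 3 genes both MOF cKO libraries lay under both controls, and library 5 lay lowest. Dkk4 measured 21.3 and 23.3 CPM against 2.11 and 19.3 CPM. Fgf20, the ligand that signals to the dermis, measured 11.5 and 8.0 against 3.22 and 8.12 CPM. For these 2 secreted factors library 5 stood apart, while library 6 was close to the controls. Sox9 measured 49.1 and 45.2 CPM against 64.8 and 36.8 CPM, so that the controls lay between the MOF cKO libraries. The Wnt ligand gene Wnt10b measured 46.9 and 42.8 CPM against 37.1 and 40.8 CPM, and Lef1 measured 196 and 188 against 137 and 185 CPM. The ligand was thus close in the groups, and Lef1 was low in library 5. Wif1 measured 20.6 and 21.6 CPM against 13.1 and 17 CPM. Axin2, the feedback gene, measured 29.3 and 30.9 against 28.3 and 31.1 CPM and overlapped.

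No member passed the test in this comparison, nor did any of the 14625 genes tested (0.0% by edgeR at an adjusted p under 0.05). The difference in log2 CPM was -1.75 ± 0.57 (SE) for Lhx2, -0.76 ± 0.12 for Trps1 and -0.53 ± 0.18 for Edar (edgeR adjusted p = 0.503 for each), and -1.02 ± 0.85 for Dkk4 (adjusted p = 0.589). Over the 10 genes the median difference was -0.45, against -0.01 over all genes tested, and in 7 of the 10 both MOF cKO libraries lay under both controls, which 31.6% of all genes tested did. Although edgeR called none, 1360 genes had an unadjusted p under 0.05, and DESeq2 called 140 genes, Lhx2 (adjusted p = 0.0472) and Trps1 (adjusted p = 0.0264) among them. Without the mosaic library 6, when library 5 was assumed to vary like the controls, 45.5% of 15415 genes were called, with 8 of the 10 members, among them Dkk4 at -3.13 (edgeR adjusted p = 0.00236), Lhx2 at -2.88 (adjusted p = 0.00552) and Sox9 at 0.73 (adjusted p = 0.00428). Epithelial markers summed to 7132 and 12906 CPM in the epithelial gates of libraries 5 and 6, against 16637 and 14350 CPM in the controls. Dermal fibroblast markers summed to 2576 and 2357 against 1847 and 1735 CPM, mural markers to 114 and 22.9 against 14.9 and 14.4 CPM, muscle markers to 22.7 and 8.99 against 4.25 and 1.72 CPM, melanocyte markers to 27.4 and 31.0 against 20.6 and 14.1 CPM, and erythroid genes to 30148 and 12056 against 18932 and 20833 CPM. Merkel markers summed to 8.50 and 7.51 against 15.8 and 11.2 CPM. Library 5 stood apart in the epithelial, mural, muscle and erythroid lists. Both MOF cKO libraries lay above both controls in the dermal, mural, muscle and melanocyte lists, and under both in the epithelial and Merkel lists. The part of these cells in the values was not tested.

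For Dkk4 and Lhx2 the share of cells with a UMI fell together with the level in MOF cKO library 5. Dkk4 was found in 165 of 2635 and 172 of 2896 control cells and in 20 of 1061 and 90 of 1648 MOF cKO cells. It had 5.85 and 7.79 UMIs per positive control cell and 2.40 and 7.40 per positive MOF cKO cell. Of the same cells, Lhx2 was found in 276 and 231 in control against 20 and 72 in MOF cKO, with 3.86 and 4.15 UMIs a positive cell against 2.55 and 4.35. In sums over a gate, fewer cells that carry a gene and less RNA per cell cannot be told apart. After each cell was thinned to 5000 UMIs, the share with a UMI of Lhx2 was 6.40% and 4.71% in control against 0.381% and 2.68% in MOF cKO, and that of Dkk4 was 4.15% and 3.64% against 0.571% and 3.36%. Immune cells of the same 4 libraries, which should lack both, had a thinned share of at most 0.159% for Lhx2 and 0.218% for Dkk4, with a median of 12966 to 15690 UMIs a cell before thinning against 16053 to 20210 in epithelial-gate cells. In the few Dkk4-positive cells of MOF cKO, Fgf20 was still found in 12 of 20 and 54 of 90. Cells with 3 or more members made up 15.3% and 14.6% of thinned cells in control against 9.90% and 11.7% in MOF cKO, against 0% to 0.671% of immune cells over all libraries. The share was not particular to the epithelial gate. In thinned fibroblast-gate cells it was 25.3% and 22.7% in control against 13.7% and 21.1% in MOF cKO.

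The next comparison, at E16.5, had both MOF cKO libraries under both controls for 9 of the 10 genes, as 56.4% of all genes tested had, with few cells to measure them in. Lhx2 fell from 35.0 and 18.7 CPM in the controls to 0 and 1.25 CPM in MOF cKO (0 and 1 UMI). It was the only member that passed the test, with a difference in log2 CPM of -4.55 ± 0.84 (edgeR adjusted p = 0.0356). Over the pooled libraries, with 277 UMIs against 1, the control level of Lhx2 was 33.4 times that of MOF cKO (95% counting interval 5.94 to 1324). The interval takes UMIs as independent and is too narrow where several come from 1 cell. In the same comparison 5.82% of the 9938 genes tested were called and 1.14% were called lower. The call of Lhx2 was lost with mitochondrial UMIs under 5% (edgeR adjusted p = 0.0639), without cells positive for both gates (0.0589), without cells high in suprabasal keratins (0.113) and without control library 1, MOF cKO library 1 or MOF cKO library 2 (0.0637, 0.181 and 0.0768). Its difference stayed at -3.85 or lower in each of these.

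Dkk4 had no UMI in either MOF cKO library at E16.5, against 10.9 and 24.9 CPM in the controls. With 577644 and 800201 UMIs in their epithelial gates, a floor of 3 UMIs was 5.19 and 3.75 CPM each and 2.18 CPM over the group. By that floor Dkk4 was at least 8.23-fold lower if UMIs are taken as independent (edgeR adjusted p = 0.0776, not called). They are not, since positive E15.5 control cells held several Dkk4 UMIs each, and the MOF cKO gates held 30 and 39 cells. A bound that allowed for this would be weaker and was not computed. The 8.23-fold bound went from 3.45 to 11.5 when 1 library was left out. Without cells positive for both gates Dkk4 measured 3.18 CPM in control library 1 and 26.5 CPM in control library 2. Lef1, the nuclear effector of the Wnt signal, measured 102 and 125 CPM against 10.4 and 33.7 CPM (log2 difference -1.76 ± 0.48, edgeR adjusted p = 0.0790). It was still found in 4 of 30 and 14 of 39 MOF cKO cells. Fgf20 measured 4.93 and 11 CPM against 1.73 and 0 CPM, which is 1 UMI in MOF cKO. Edar measured 17.9 and 14.9 CPM against 5.19 and 7.50 CPM. Axin2 measured 21.8 and 22.6 against 6.92 and 11.2 CPM. Their log2 differences after TMM scaling were -0.75 ± 0.45 and -0.68 ± 0.43, neither of which passed (edgeR adjusted p = 0.312 and 0.330). The unscaled CPM show a larger fall for both genes. Wnt10b was low in all 4 libraries, at 8.30 and 11.1 CPM against 3.46 and 6.25 CPM. Its log2 difference of -0.41 ± 0.61 (edgeR adjusted p = 0.678) was 0.27 without cells high in suprabasal keratins and 0.11 with mitochondrial UMIs under 5%.

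Sox9 stood apart from the other 9 genes at E16.5. It measured 25.2 and 39.9 CPM in control against 39.8 and 47.5 CPM in MOF cKO, and its groups overlapped by a small margin (log2 difference 0.98 ± 0.40, edgeR adjusted p = 0.171). Its sign was the same with each scaling tried, and it was called without control library 2 (edgeR adjusted p = 0.0366). Over the 10 genes the median difference was -2.22 against -0.11 over all genes tested, which scaling by library size alone placed at -0.71. Of thinned MOF cKO cells, 0 of 28 and 0 of 36 had 3 or more members, which allows up to 12.1% and 9.64% (Wilson 95% intervals), against 11.9% and 10.5% of control cells. In thinned fibroblast-gate cells this share was also lower, at 3.39% and 3.81% in MOF cKO against 21.7% and 14.6% in control.

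The difference of Wif1 at E16.5 depended on cells positive for both gates, and that of Trps1 did so less. Both stayed negative without these cells. At E16.5 Wif1 measured 99.4 and 20.6 CPM in all epithelial-gate cells of the controls, and 18.3 and 12.1 CPM without cells positive for both gates. In MOF cKO it measured 1.73 and 6.25 CPM with them and 1.73 and 6.12 CPM without them. The log2 difference of Wif1 was -3.12 ± 0.93 with these cells and -1.32 without them, and that of Trps1 was -2.68 ± 0.76 and -2.10 (edgeR adjusted p between 0.0850 and 0.209, none called). The summed level of the 7 dermal fibroblast markers in the epithelial gate was 8807 and 2137 CPM in control against 852 and 1213 CPM in MOF cKO, with no marker at 0. At E15.5 the share of such cells was 6.57% and 6.66% in control against 13.0% and 9.16% in MOF cKO, and without them Wif1 measured 11.6 and 13.7 against 4.17 and 6.52 CPM and Trps1 30.4 and 29.8 against 12.7 and 12.7 CPM.

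**Figure D3:**
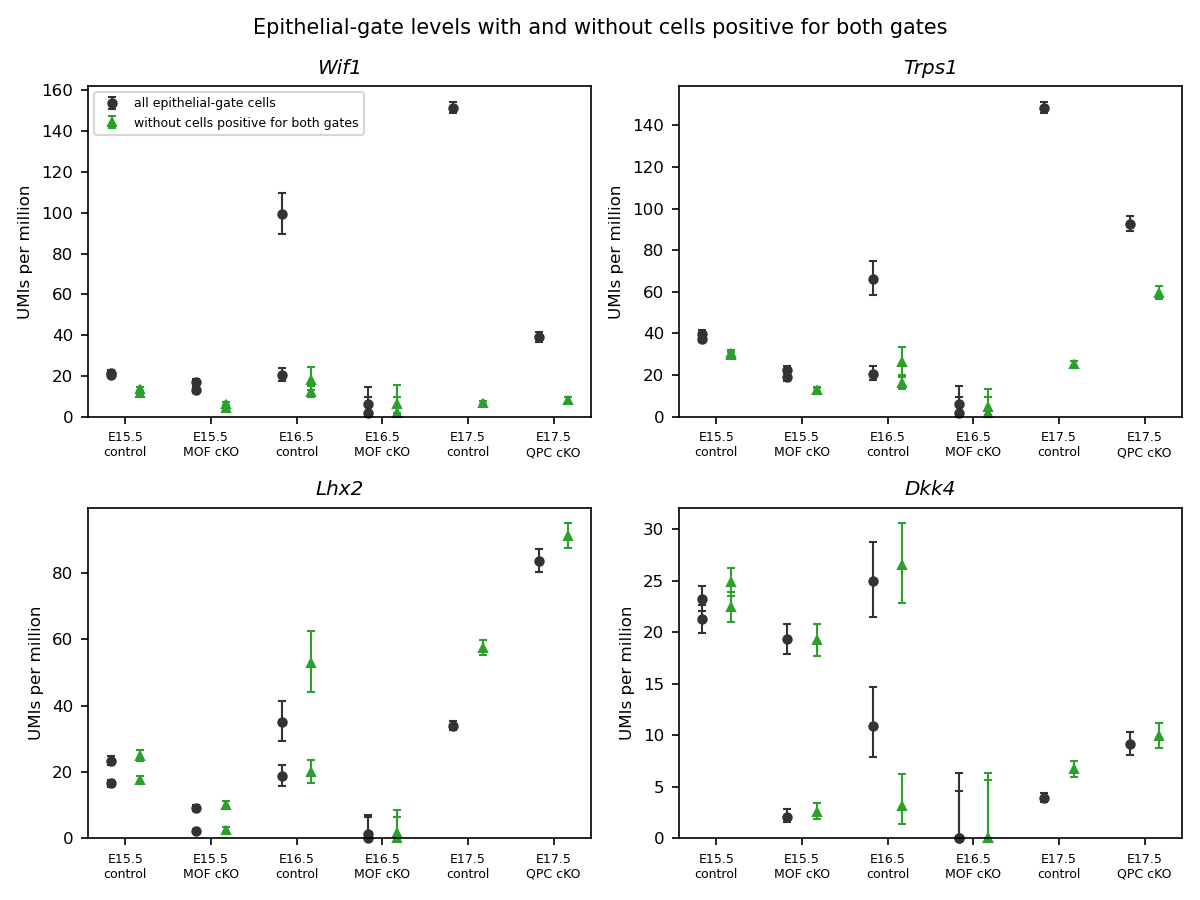
Level of Wif1, Trps1, Lhx2 and Dkk4 in all epithelial-gate cells (black circles) and without cells positive for both gates (green triangles), in CPM for each library, with 95% exact Poisson intervals. The E17.5 control drops from 152 to 6.82 for Wif1 and from 148 to 25.1 for Trps1 without these cells, and Lhx2 rises in each control library.

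A further test asked whether the effect of MOF cKO was unequal at E15.5 and E16.5, as an interaction term. None of the 10 genes passed, and 0.11% of the 13602 genes tested did. The interaction was -2.89 for Lhx2 (edgeR adjusted p = 0.389), -1.68 for Lef1 (adjusted p = 0.184) and 0.62 for Sox9 (adjusted p = 0.621). A larger effect of MOF cKO at E16.5 than at E15.5 was therefore not shown for any member. Stage, kit chemistry and gene list cannot be told apart in levels set across stages.

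In fibroblast-gate cells 5 of the 10 genes were abundant enough to be followed at every stage: Lef1, Axin2, Sox9, Trps1 and Wif1. At E15.5 Wif1 measured 220 and 189 CPM in control and 120 and 165 CPM in MOF cKO. Trps1 measured 258 and 208 against 119 and 186 CPM. Lef1 measured 80.7 and 81.6 against 55.4 and 76.2 CPM. For each of these genes both MOF cKO libraries lay under both controls, and library 5 was the lower. Axin2 measured 41.0 and 43.1 against 36.5 and 43.7 CPM, and Sox9 measured 11.7 and 11.2 against 10.9 and 12.1 CPM. Those groups overlapped. Markers of other cells differed in this gate too: mural markers summed to 205 and 208 CPM in MOF cKO against 141 and 155 CPM in control, muscle markers to 38.0 and 43.6 against 20.1 and 25.2 CPM, and endothelial markers to 32.1 and 27.8 against 21.6 and 22.4 CPM. Epithelial markers summed to 21.9 and 68.0 against 122 and 152 CPM, and the part of these cells in the values was not tested. None of the 7 members tested passed, nor did any of 16268 genes (0.0%), of which 2538 had an unadjusted p under 0.05 by edgeR and 494 were called by DESeq2. The log2 differences were -0.55 ± 0.14 for Wif1 (edgeR adjusted p = 0.216), -0.64 ± 0.20 for Trps1 (adjusted p = 0.245) and -0.33 ± 0.12 for Lef1. Lower values without overlap were seen in 4 of the 7 members, against 20.4% of all genes tested. Without the mosaic library 6, Lef1 passed at -0.53 (edgeR adjusted p = 0.0406), among 0.692% of 16474 genes.

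**Figure D4:**
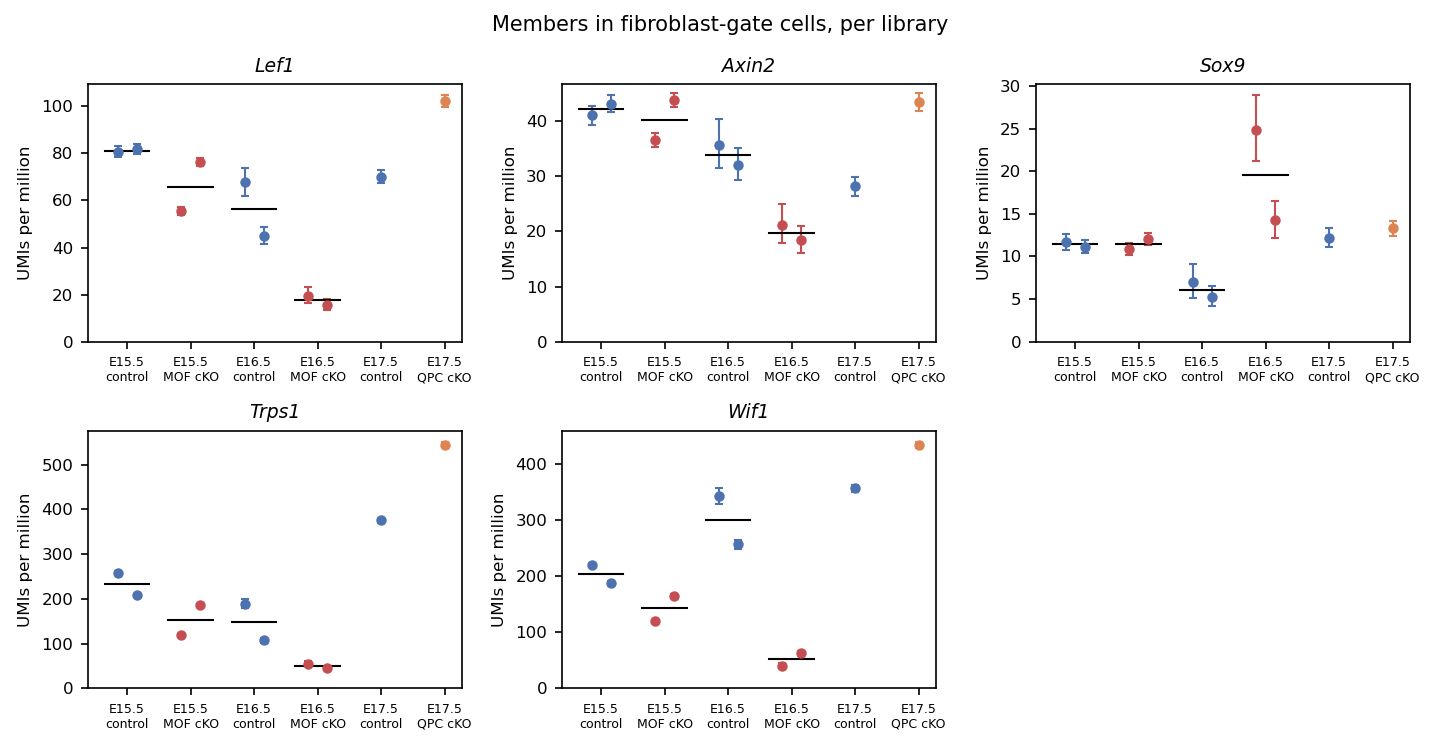
Level of Lef1, Axin2, Sox9, Trps1 and Wif1 in fibroblast-gate cells of every library, in CPM on axes that start at 0. Points are libraries with 95% exact Poisson intervals, horizontal bars are means of 2 libraries, and colours mark control (blue), MOF cKO (red) and QPC cKO (orange). At E16.5 Sox9 alone is higher in both MOF cKO libraries than in both controls.

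At E16.5, 3 of the 5 genes tested in the fibroblast gate fell in MOF cKO and Sox9 rose. Wif1 fell from 343 and 257 CPM to 40.4 and 62.5 CPM, a log2 difference of -2.41 ± 0.22 (edgeR adjusted p = 0.0243). Lef1 fell from 67.6 and 45.0 CPM to 19.5 and 15.7 CPM (-1.54 ± 0.21, edgeR adjusted p = 0.0335), and Trps1 fell from 189 and 107 CPM to 55.2 and 44.8 CPM (-1.41 ± 0.26, adjusted p = 0.0478). Sox9, a factor of follicle progenitors and of cartilage, rose from 6.95 and 5.24 CPM to 24.9 and 14.2 CPM (1.82 ± 0.34, edgeR adjusted p = 0.0497). Axin2 measured 35.6 and 32.0 CPM against 21.2 and 18.4 CPM and did not pass (-0.65 ± 0.16, edgeR adjusted p = 0.0788). In the same comparison 4.64% of 12569 genes were called, 2.21% lower and 2.43% higher, and 35.8% of all genes had both MOF cKO libraries under both controls, as had 4 of these 5. Without control library 2 no gene passed. Wif1 kept its call without any 1 of the other libraries (edgeR adjusted p from 0.0193 to 0.0341), and Sox9 kept it without MOF cKO library 2 (adjusted p = 0.0255) and lost it without either of the others, while Lef1 and Trps1 lost theirs without any 1 library (adjusted p from 0.0510 to 0.186). Markers of other cells also differed in this gate. Summed immune markers measured 106 and 238 CPM in MOF cKO against 18.2 and 40.0 CPM in control, muscle markers 50.5 and 68.1 against 23.0 and 14.7 CPM, mural markers 126 and 122 against 70.0 and 80.5 CPM, and endothelial markers 42.3 and 33.6 against 22.7 and 22.2 CPM. Suprabasal epidermal markers were lower, at 114 and 107 against 419 and 326 CPM. The part of these cells in the values was not tested. In immune cells Sox9 and Lef1 reached at most 1.76 and 3.38 CPM at E16.5, while Trps1 measured 38.9 to 96.8 CPM.

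The fibroblast gate held almost none of the other members. Edar, Dkk4 and Fgf20 had no UMI in either MOF cKO library at E16.5 and 8, 8 and 4 UMIs in the 2 controls together, too few for a fold. Wnt10b measured at most 2.86 CPM and Lhx2 at most 1.97 CPM in any library. Summed epithelial markers in that gate were 578 and 340 CPM in the E16.5 controls and 150 and 193 CPM in MOF cKO, and their part in these low values was not tested.

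**Figure D5:**
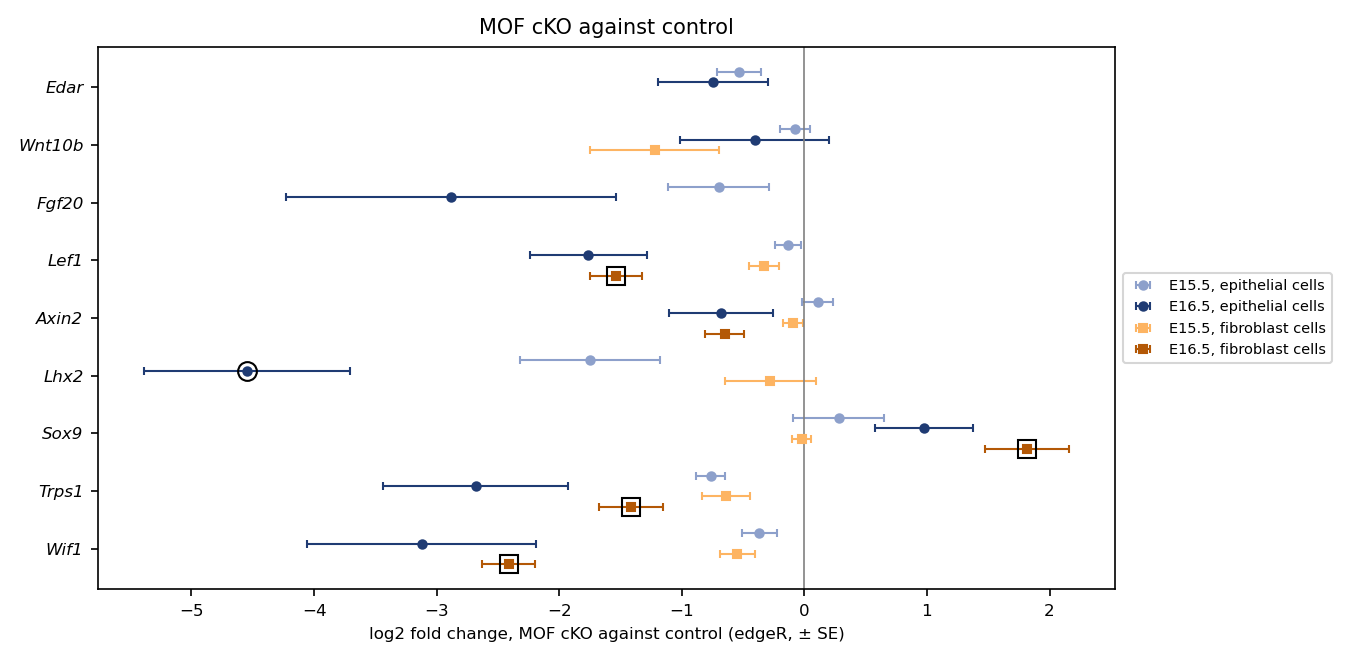
Difference in log2 CPM between MOF cKO and control for 9 genes in epithelial-gate (blue circles) and fibroblast-gate cells (orange squares) at E15.5 (light) and E16.5 (dark). Bars are SE derived from the edgeR F statistic. Black outlines mark an adjusted p under 0.05, which holds for Lhx2 in epithelial-gate cells and for Lef1, Sox9, Trps1 and Wif1 in fibroblast-gate cells at E16.5. Dkk4 is left out because both E16.5 MOF cKO libraries held no UMI.

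Whether the epithelial and fibroblast gates differed in their response was tested as an interaction within each stage. No member passed at E15.5, where 0.0% of 16475 genes did, or at E16.5, where 0.395% of 13165 genes did. At E16.5 the interaction was -4.12 for Lhx2 (edgeR adjusted p = 0.156), -0.33 for Lef1 (adjusted p = 0.781) and -0.84 for Sox9 (adjusted p = 0.396). For Edar, Dkk4 and Fgf20 the fibroblast gate held no UMI in MOF cKO, so their fitted interactions rest on the prior count and are not read. At E15.5 Lhx2 passed when library 5 was left out, among 1.48% of 16840 genes. Without the mosaic library 6, 37.2% of 16949 genes passed, with Wnt10b, Lef1, Axin2, Lhx2 and Sox9, while the pass of Edar is not read because the fibroblast gate of library 5 held no UMI of it. Each of these fits left 1 MOF cKO library, which was assumed to vary like the others.

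Other genes of the pathways around the 10 were read in 6 lists. At E15.5 no gene of any list passed in either gate, with 15 to 31 genes tested a list. These tests included the mosaic library 6, without which calls over all genes rose in both gates as given above. The lists were not read without it. Values with the smallest p in epithelial-gate cells at E15.5 were those of Tgfb2, a growth factor of the hair germ, at 27.3 and 18.2 against 6.91 and 8.44 CPM (edgeR adjusted p = 0.503), and Pthlh, a peptide of the hair germ, at 20.8 and 22.7 against 7.71 and 12.1 CPM. Ptch1, the hedgehog receptor and target, measured 127 and 111 against 64.4 and 86.5 CPM. At E16.5 the Wnt ligand Wnt16 fell in epithelial-gate cells from 82.0 and 137 CPM to 3.46 and 16.2 CPM (log2 difference -2.85 ± 0.62, edgeR adjusted p = 0.0491), the 1 ligand or secretion gene of 11 tested that passed, in a comparison where 5.82% of all genes were called and 1.14% were called lower, and where leaving out 1 library gave 39 to 1112 calls. Of 13 other placode and hair germ genes, Tgfb2 fell from 37.1 and 33.5 CPM to 0 and 1.25 CPM (-4.98 ± 0.73, edgeR adjusted p = 0.0199) and Krt17, a keratin of the hair germ that stressed epidermis also makes, rose from 1016 and 1111 CPM to 4813 and 3255 CPM (2.53 ± 0.42, adjusted p = 0.0273). None passed among 26 receptors and transduction genes, 13 inhibitors and feedback genes, 13 ectodysplasin and NF-kB genes and 5 dermal condensate genes. In that list of receptors and transducers, Tcf4 and Tcf3 had the smallest p, and under mouse nomenclature these symbols name E-box factors and not TCF/LEF factors.

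In fibroblast-gate cells at E16.5, the list with the most calls was that of genes that restrain or report the Wnt signal. Of 20 tested inhibitors and feedback genes 5 fell and 1 rose, in a comparison where 2.21% of all genes fell and 2.43% rose and where no gene passed without control library 2. Dkk1, a secreted inhibitor, fell from 38.1 and 28.5 CPM to 1.48 and 2.50 CPM (log2 difference -3.87 ± 0.25, edgeR adjusted p = 0.0191), and its receptor partner Kremen2 fell by 3.37, Sfrp5 by 1.60, and the cyclin gene Ccnd1 by 1.47 on the log2 scale. The other 2, named after their values were seen, were Nkd1, which fell by 1.21, and Sfrp2, which rose by 0.90. Rspo1, a secreted enhancer of the signal, rose from 46.2 and 29.7 CPM to 128 and 121 CPM (1.87 ± 0.19, edgeR adjusted p = 0.0267), the 1 gene of 14 ligands and secretion genes that passed. Of 15 ectodysplasin and NF-kB genes, the inhibitor gene Nfkbia rose from 245 and 139 CPM to 629 and 480 CPM and Nfkb1 from 24.1 and 20 CPM to 33.4 and 32.8 CPM. Of the 15 dermal condensate genes Ptch1 fell from 109 and 65.1 CPM to 21.5 and 22.8 CPM and Enpp2 rose. Of 12 other placode and hair germ genes Tgfb2 was the 1 that passed, and it rose from 21.3 and 18.9 CPM to 40.5 and 56.0 CPM, opposite to its fall in the epithelial gate. None of 29 receptors and transduction genes passed. The median over the inhibitors and feedback genes was -0.70, against 0.01 over all genes tested in that gate. Since the lists were chosen with earlier results of these data known, neither this median nor the number of calls is read as an excess.

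The QPC cKO was measured in 1 library beside 1 control at E17.5, so that no test was possible. Among epithelial-gate cells, 4 of the 10 genes were at least 2-fold higher in the QPC cKO library on the scale of log2(CPM + 1), where 1.11% of the 15332 genes with 30 or more UMIs were, and 10.3% were 2-fold apart in either direction. Fgf20 measured 6.78 CPM in control and 21.2 CPM in QPC cKO, a ratio of 3.13 (95% counting interval 2.77 to 3.53). Lhx2 measured 34.0 and 83.7 CPM (ratio 2.46), Sox9 measured 53.4 and 124.9 CPM (2.34) and Dkk4 measured 3.96 and 9.12 CPM (2.30). With mitochondrial UMIs under 5% Dkk4 was instead lower in QPC cKO, at -0.31 on that log2 scale. Wif1 was over 2-fold lower, at 152 against 39.1 CPM, and Trps1 measured 148 against 92.6 CPM. Edar measured 14.6 and 23.1 CPM, Wnt10b 45.5 and 70.5 CPM, Lef1 137 and 211 CPM and Axin2 31 and 42.2 CPM. All but Wif1 and Trps1 were thus higher in the QPC cKO library.

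These ratios moved with the cells positive for both gates, which were 41.9% of the control gate and 8.78% of the QPC cKO gate. The 7 dermal fibroblast markers summed to 28454 CPM in the control gate and 4954 CPM in the QPC cKO gate, with none at 0. Muscle markers summed to 178 against 31.3 CPM, mural markers to 211 against 72.3 CPM and immune markers to 222 against 84.8 CPM. Higher in QPC cKO were melanocyte (198 against 333 CPM), Merkel (11.5 against 23.2 CPM) and erythroid genes (40.3 against 545 CPM). The part of these other cells was not tested. Without cells positive for both gates Trps1 turned from lower to higher in QPC cKO, at 25.1 against 59.6 CPM (ratio 2.37, counting interval 2.19 to 2.57). It was then the 1 member at least 2-fold apart on the scale of log2(CPM + 1), where 0.83% of 14339 genes were 2-fold higher. Fgf20 measured 11.4 and 23.0 CPM (ratio 2.02, but 0.96 on that scale), Sox9 84.0 and 135 CPM (1.61), Lhx2 57.5 and 91.3 CPM (1.59) and Dkk4 6.68 and 9.91 CPM (1.48). Edar and Wnt10b were even, with ratios of 1.01 (0.917 to 1.12) and 1.01 (0.952 to 1.07), and Wif1 was higher in QPC cKO, at 6.82 against 8.47 CPM. The share of thinned cells with 3 or more members was 21.5% in control and 30.6% in QPC cKO, and 20.4% against 30.6% without cells positive for both gates. It was also higher in the fibroblast gate of QPC cKO, at 27.2% in control and 36.4% in QPC cKO. In fibroblast-gate cells none of the 8 members with 30 or more UMIs was 2-fold apart on the scale of log2(CPM + 1), where 0.639% of 14713 genes were 2-fold higher and 1.99% 2-fold apart in either direction. Trps1 measured 375 and 544 CPM there, Wif1 357 and 434 CPM, Lef1 70.1 and 102 CPM, Axin2 28.1 and 43.3 CPM and Sox9 12.2 and 13.3 CPM. Wnt10b measured 2.86 and 1.18 CPM, a ratio of 0.414 (0.304 to 0.561) but a difference of -0.82 on that scale.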

How the data were processed

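Raw UMI counts per gene and cell barcode were deposited by the authors, from dissociated back skin run on 10x Genomics 3′ kits (v3.1 at E15.5, v2 at E16.5, v3 at E17.5). Per the labels and the study's methods the reads were aligned to mm10 and counted with Cell Ranger; the version differs between these sources for E16.5 and E17.5. The genes and the pathway lists were chosen with earlier results of these data known.

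Cells were filtered and gated as given above; no doublets were called or removed. UMIs were summed per library and gate and tested with edgeR 4.0.16 in R 4.3.3 (TMM scaling, filterByExpr, quasi-likelihood F test, Benjamini-Hochberg adjustment over all genes tested, calls at 0.05), after the procedure was tested on simulated data. Groups followed the labels; the gate comparison kept the library as a block. Each SE is the absolute log2 difference divided by the square root of the edgeR F statistic. It is only approximate, above all where a group held few UMIs. DESeq2 1.42.0, other scalings, filters and gates, and leaving out each library were the alternatives. At E17.5, with 1 library a group, genes with 30 or more UMIs were compared on log2(CPM + 1) at a 2-fold limit. Poisson, binomial and Wilson intervals (95%) and floors of 3 counts cover counting error only. The Poisson and binomial intervals and the floors take UMIs as independent, so they are too narrow for genes with several UMIs to a cell. Shares called thinned were taken after thinning each cell to 5000 UMIs, and shares of cells with pairs of genes and counts of positive cells were not thinned. Thinned shares had immune cells (5 or more UMIs of Tyrobp and Fcer1g, outside both gates) as background, except for Trps1, which they express. All 10 genes were named throughout, with up to 4 called genes a pathway list by largest difference among those whose groups did not overlap (where none was called, up to 2 by smallest p), and up to 3 nearest genes at r of 0.2 or above, found in at least 20 cells of each library. A gene named by this rule for Edar is not reported here. Counting pairs of genes without cells positive for both gates was chosen after seeing the data. The counts are 3′ tags, so levels are not compared between genes.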

Additional observations from a re-analysis of the deposited data

Results flagged for a closer look

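Tgfb2, a hair germ gene whose pattern over cells was among the nearest to that of Lhx2, had a MOF cKO effect that differed between the gates at E16.5 by the test of that difference, which 0.395% of 13165 genes passed and none of the 10 members did. The difference between its MOF cKO effect in epithelial-gate and in fibroblast-gate cells was -6.55 ± 0.61 on the log2 scale (edgeR adjusted p = 0.0359). It fell by 4.98 in epithelial-gate cells, from 37.1 and 33.5 CPM to 0 and 1.25 CPM, and rose by 1.39 in fibroblast-gate cells, from 21.3 and 18.9 CPM to 40.5 and 56.0 CPM. The epithelial value rested on 1 UMI in MOF cKO against 397 in the controls, a ratio of 47.9 with a 95% counting interval of 8.54 to 1895. That interval takes UMIs as independent and is too narrow where several come from 1 cell. With either MOF cKO library left out no gene passed this test of the difference.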

How the results depend on the processing

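Of 477 member values under an alternative other than leaving out a library, 408 stayed the same. Another 21 newly passed, 10 no longer passed, 27 moved (Trps1 at E17.5, which also turned, among them) and 11 reversed. For tested values the same meant direction and side of the threshold. For E17.5 values it meant a place inside the counting interval of the main value. The E16.5 call of Lhx2 in epithelial-gate cells was lost under several of these settings, as given above. With 2 libraries a group, 30 and 39 epithelial-gate cells in E16.5 MOF cKO and 1 library a genotype at E17.5, the precision of low genes was limited by cells and UMIs. Where a cause is not named below, the cause was not tested.

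For MOF cKO in epithelial-gate cells at E15.5, DESeq2 called 140 genes with 2 members, and no filter on low counts 1 gene. In fibroblast-gate cells at E15.5 DESeq2 called 494 genes with 1 member and no filter 222 genes. In epithelial-gate cells at E16.5 the members called were 4 with library sizes alone (812 genes), 5 with DESeq2 (864 genes), 5 without a filter (2007 genes), 3 with at least 20 UMIs of Krt5 and Krt14 (1209 genes), and 0 with mitochondrial UMIs under 5% (316 genes), without cells positive for both gates (290 genes) and without cells high in Krt1 and Krt10 (23 genes). In fibroblast-gate cells at E16.5 DESeq2 called 950 genes and no filter 1752, a collagen limit of 60 left 1 member, and a keratin limit of 3 left 2 members (376 genes). Without the library block 3873 genes differed between the gates. For the stage interaction library sizes alone called 3 genes, no filter 664 with 2 members, and without cells positive for both gates 0. For the gate interaction at E16.5 the counts were 12 with library sizes alone, 533 without a filter and 477 without cells positive for both gates. At E17.5 a pseudocount of 5 left 725 genes 2-fold apart in epithelial-gate cells and 134 in fibroblast-gate cells, leaving out cells positive for both gates gave 773 with 1 member, and a keratin limit of 3 in fibroblast-gate cells 1097 with 1 member. With cells thinned to 3000 UMIs, 5 members had a lower share in both E16.5 MOF cKO fibroblast gates than in both controls. Only members were thinned, so no share over all genes stands beside that count. For levels, 35.8% of all genes tested were lower in this way.

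Some differences reversed. With library sizes alone Axin2 at E15.5 was -0.020 in epithelial-gate cells, Sox9 0.0054 in fibroblast-gate cells, and the fitted gate difference of Fgf20 at E16.5, where its fibroblast gate held no UMI in MOF cKO, -0.20. A collagen limit of 60 gave Sox9 0.085 at E15.5. Wnt10b in epithelial-gate cells was 0.017 at E15.5 and 0.27 at E16.5 without cells high in Krt1 and Krt10, and 0.11 at E16.5 with mitochondrial UMIs under 5%. Without cells positive for both gates the gate difference of Wif1 was -0.58 at E15.5 and 0.93 at E16.5, its E17.5 difference was 0.27, and that of Trps1 turned from -0.67 to 1.22. Dkk4 at E17.5 was -0.31 with mitochondrial UMIs under 5%.

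With 1 library left out at a time, calls ran from 1 to 7015 genes and 0 to 8 members (E15.5 epithelial), 0 to 114 and 0 to 1 (E15.5 fibroblast), 39 to 1112 and 0 to 4 (E16.5 epithelial), 0 to 369 and 0 to 2 (E16.5 fibroblast), 6734 to 9005 and 9 to 10 (gates in control), 0 to 10 and 0 to 0 (stage interaction), 250 to 6308 and 1 to 6 (gate interaction, E15.5) and 0 to 0 in both (E16.5), where for the interactions only MOF cKO libraries were left out. The highest count at E15.5 was without the mosaic library 6. Reversed differences ran from -0.37 to 0.73 for Sox9 (E15.5 epithelial), -0.73 to 0.12 for Lhx2 and -0.052 to 0.018 for Sox9 (E15.5 fibroblast), -0.39 to 0.77 for Sox9 and -0.41 to 0.17 for Trps1 (gate interaction, E15.5), and -1.58 to 0.41 for Lef1, -0.63 to 0.24 for Axin2 and, on that empty fibroblast gate, -5.41 to 1.69 for Fgf20 (gate interaction, E16.5).

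At E16.5, deviations of libraries with the same replicate number had a correlation of -0.015 (epithelial) and -0.040 (fibroblast). With 2 libraries a group this cannot tell whether libraries of equal number shared a litter. The study describes pairs of samples and littermate controls. With the replicate number as a block, 3 members were called in epithelial-gate cells, among 549 genes against 578 without it. No paired analysis was possible because the replicate numbers of the groups differed at E15.5 and each group had 1 library at E17.5.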

Other observations

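Over cells, Sox9 in MOF cKO library 5 at E15.5 had a UMI in 23.0% of thinned epithelial-gate cells, against 14.8% and 13.9% in control and 13.5% in MOF cKO library 6. Eda2r, a receptor of another ectodysplasin form, measured 9.16 and 1.57 CPM in epithelial-gate cells of E15.5 MOF cKO libraries 5 and 6 and 0.132 and 0.295 CPM in control (log2 difference 4.81 ± 1.16, edgeR adjusted p = 0.503). In E16.5 epithelial-gate cells the p for Nfkb2, a subunit of NF-kB, was just above the threshold, at 13.2 and 10.8 against 19.0 and 28.7 CPM (log2 difference 1.60 ± 0.37, edgeR adjusted p = 0.0563).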
